A study of Mus musculus with 27 samples.

Results

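The genes described are 7 genes of cholesterol synthesis and its control by the transcription factor SREBP2: Srebf2, Insig1, Hmgcs1, Sqle, Idi1, Cyp51 and Fdft1. They were chosen by name, and their members are the 22 of 70300 H3K27ac windows that the authors' table assigns to them (7 of 16038 genes), together with the LXR, ATF3 and P300 sites that lie between the outermost windows of each gene or within 5000 bp of them. The cells were Kupffer cells, macrophages that reside in the liver, gated as F4/80-Hi Tim4-Pos cells from C57BL/6J mice on a NASH diet or on a control diet. NASH is nonalcoholic steatohepatitis, a fatty and inflamed liver. Each diet had 2 libraries of H3K27ac ChIP-seq, in which DNA bound to acetylated histone tails of active promoters and enhancers is sequenced. LXR, ATF3 and P300 had 2 libraries per diet each, which the authors joined into 1 list of reproducible sites per factor and diet. No genetic change is named in the labels, and the age and sex of the mice and their time on the diet are not given in the sources used here. Nothing in the labels says whether libraries came from separate animals, and p-values then reflect only how far these libraries differ, which can be technical. The windows were open chromatin regions merged from a control list and a 20-week diet list. The LXR and P300 files of the NASH diet name their libraries differently, so assays may not share 1 diet time.

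SREBP2, the product of Srebf2, is held in the endoplasmic reticulum by SCAP and INSIG proteins while sterol is plentiful. When sterol falls, SREBP2 is cleaved, enters the nucleus and, together with NF-Y, activates the genes of cholesterol synthesis and Insig1 itself. LXR, a nuclear receptor activated by oxysterols and by the synthesis intermediate desmosterol, drives cholesterol export and the fatty acid regulator Srebf1 in macrophages. ATF3 is a stress-induced factor of the AP-1 and CREB type, and P300 is an acetyltransferase that places H3K27ac.

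Promoter sequence was at hand for 5 of the 7 genes from RefSeq (GRCm38.p6), as 250 bases before and 50 bases after the start. The 4 shown here, limited to the 250 bases before the start, are those the results below turn on. Hmgcs1 (chr13:119690101-119690350, plus strand) holds the only sterol regulatory element found. Insig1 (chr5:28071162-28071411, plus strand) had overlapping diets, unlike the 3 upstream windows that hold most of the H3K27ac measured for the gene. Cyp51 (chr5:4104698-4104947, minus strand) had more H3K27ac in both NASH libraries. Idi1 (chr13:8885356-8885605, plus strand) had the most H3K27ac per length and factor sites on 1 list of each diet. All run 5′ to 3′ toward the start, and capitals mark the sterol regulatory element (SRE) and the NF-Y box.
Hmgcs1: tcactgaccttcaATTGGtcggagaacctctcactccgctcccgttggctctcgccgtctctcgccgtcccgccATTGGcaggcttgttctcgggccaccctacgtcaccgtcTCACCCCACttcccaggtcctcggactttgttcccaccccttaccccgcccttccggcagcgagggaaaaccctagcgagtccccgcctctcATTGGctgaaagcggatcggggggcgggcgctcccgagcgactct
Insig1: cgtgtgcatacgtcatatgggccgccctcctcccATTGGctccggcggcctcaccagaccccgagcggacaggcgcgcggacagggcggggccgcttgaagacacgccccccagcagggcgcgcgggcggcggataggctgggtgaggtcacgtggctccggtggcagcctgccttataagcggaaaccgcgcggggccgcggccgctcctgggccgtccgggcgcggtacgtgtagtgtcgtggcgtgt
Cyp51: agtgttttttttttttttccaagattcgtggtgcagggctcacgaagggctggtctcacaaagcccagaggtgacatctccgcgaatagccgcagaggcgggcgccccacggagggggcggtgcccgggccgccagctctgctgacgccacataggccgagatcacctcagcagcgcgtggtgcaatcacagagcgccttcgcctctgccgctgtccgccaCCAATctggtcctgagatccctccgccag
Idi1: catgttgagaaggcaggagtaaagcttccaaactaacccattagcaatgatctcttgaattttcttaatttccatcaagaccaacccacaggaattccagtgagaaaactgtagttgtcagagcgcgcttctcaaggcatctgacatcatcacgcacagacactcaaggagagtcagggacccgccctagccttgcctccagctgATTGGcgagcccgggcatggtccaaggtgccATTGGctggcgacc
The SRE was searched as TCACNCCAC, the NF-Y box as CCAAT, the AP-1 site as TGANTCA and the CRE as TGACGTCA, each on both strands. An LXR element was searched as a pair of AGGTCA repeats on 1 strand, 4 bases apart, with at most 2 mismatches. The SRE occurred in 1 of the 5 promoters, that of Hmgcs1 at -137 to -129, and in 1.24% of the 32851 promoters of the same length. The NF-Y box occurred in 5 of 5 promoters and in 37.4% of all promoters, with 4 copies at Hmgcs1 (1 of them after the start, at 11 to 15), 2 at Idi1 and 1 each at Srebf2, Insig1 and Cyp51. The AP-1 site (7.81% of all promoters), the CRE (1.79%) and the LXR element (3.02%) occurred in 0 of the 5. These are matches of letters in a short stretch, not sites of binding. Unlike the LXR element, the SRE was allowed no mismatch, so a variant SRE in the other promoters would be missed.

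H3K27ac values are tags per window scaled by the authors to 10000000 tags per library, here called normalised tags, and a gene's level is the sum over its windows. Levels are compared between genes per kb of window. On that scale Idi1 stood at 131 ± 20.3 normalised tags per kb in NASH cells and 161 ± 8.50 in control cells (SD, n = 2 each), above 93.6% and 94.7% of all genes. In NASH cells it was followed by Cyp51 (69.3 ± 3.03), Hmgcs1 (42.3 ± 13.7), Insig1 (34.8 ± 1.22), Srebf2 (25.8 ± 3.13) and Sqle (6.24 ± 8.82), with Fdft1 at 0. In control cells Idi1 was followed by Insig1 (60.8 ± 2.93), Cyp51 (47.6 ± 14.9), Srebf2 (32.0 ± 15.4), Hmgcs1 (17.8 ± 7.89), Fdft1 (13.5 ± 9.97) and Sqle (3.50 ± 2.05). The NASH libraries of Hmgcs1 and Insig1 overlapped, as did those of Sqle and Fdft1. The control libraries overlapped between Cyp51 and Srebf2, between Srebf2 and Hmgcs1, and between Hmgcs1 and Fdft1. The median over all genes was 24.5 in NASH cells and 31.9 in control cells. The windows of Sqle and Fdft1 thus lay below the middle of the table on both diets and those of Idi1, Cyp51 and Insig1 above it. Fdft1 was read from 1 window at an alternative start inside the gene, so H3K27ac at its outer start was not measured.

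**Figure D1:**
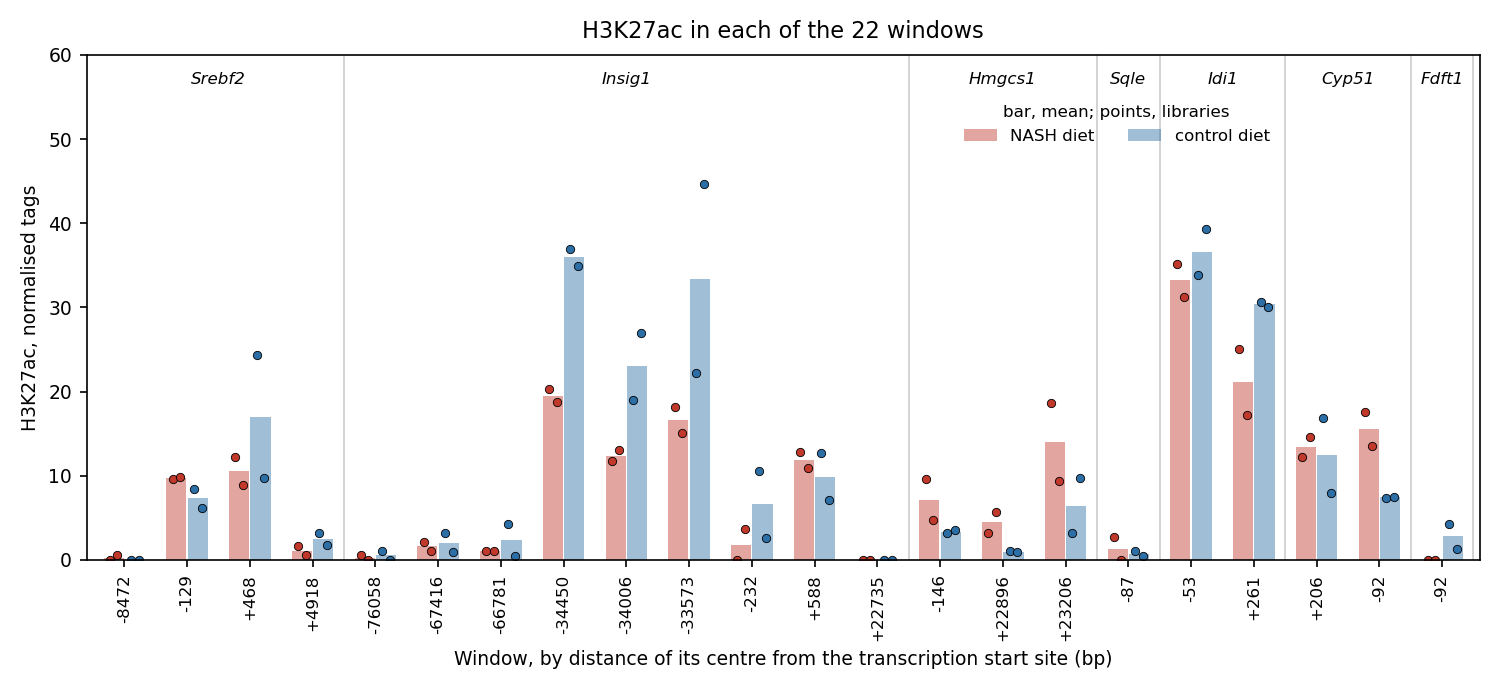
H3K27ac in normalised tags (vertical axis) in each of the 22 windows (horizontal axis, distance of the window's centre from the start site in bp), with NASH libraries in red and control libraries in blue, bars at the mean of 2 libraries and points for the libraries. The 3 windows of Insig1 between -34450 and -33573 bp had every control point above every NASH point, while the windows of Srebf2, Idi1 and Cyp51 that carry signal lay within 1000 bp of the start.

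Changes between diets were tested with limma-trend on log2(normalised tags + 1), fitted over all windows or genes with enough tags (35947 windows and 11593 genes), with Benjamini-Hochberg adjustment over all of them. This scale understates the change of low genes. The median of all tested genes was -0.29 log2 units (NASH over control) and that of windows -0.26, and all log2 changes are given after that median is subtracted, while p-values refer to the unshifted change. In sorted cells, a change in the mix of cells and a change per cell cannot be told apart. With 2 libraries against 2, an exact permutation test of 1 gene cannot go below p = 0.333. Of the 7 genes, 5 had enough tags for the test, and Sqle and Fdft1 did not. Among those 5, 1 (Insig1) was called lower in NASH cells, with 0.05 as the limit of the adjusted p, against 11.0% of all tested genes, and 0 were called higher, against 2.89%. When library totals were replaced by TMM scaling, which balances the bulk of genes, 0 of the 5 were called lower (6.19% of all genes) and 1 was called higher (Hmgcs1; 7.25%). Of the 22 windows, 11 were tested. A window call needed the same limit of the adjusted p and also a log2 change of 1 or more in size. Of the 11, limma called 0, and 5 had an unadjusted p under 0.05. Over gene sums 3346 of 11593 had such a p, and the share over all windows was not computed. Over all windows 2.00% were called higher and 4.59% lower, or 3.32% and 2.51% with TMM, and TMM, edgeR and DESeq2 also called 0 of these windows. Groups did not overlap in 4 of the 5 tested gene sums. NASH cells were higher at Hmgcs1 and Cyp51, as at 12.0% of all tested genes, and lower at Insig1 and Idi1, as at 46.0%. The same shares over all windows were not computed, so a lack of overlap in a single window is description only.

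**Figure D2:**
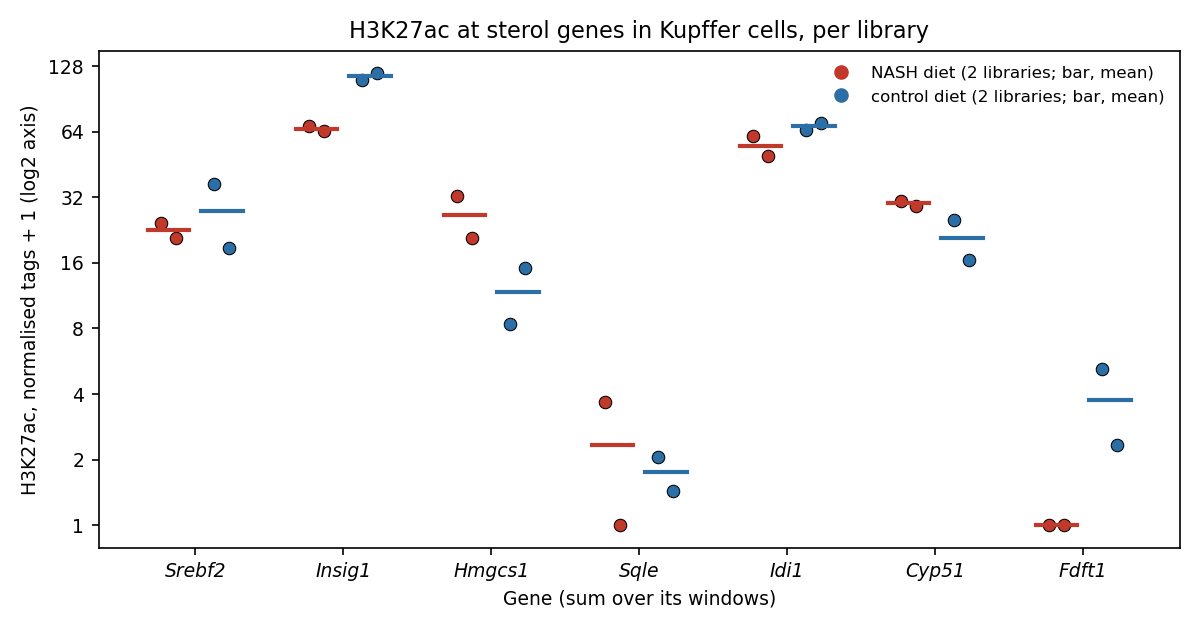
H3K27ac gene sums in normalised tags plus 1 (vertical log2 axis) for the 7 genes, with points for libraries and horizontal bars for the mean of 2, NASH on the left of each gene and control on the right. The NASH points lie below the control points at Insig1 and Idi1 and above them at Hmgcs1 and Cyp51, and the 2 NASH libraries of Fdft1 lie at 0 tags.

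Srebf2 encodes SREBP2 itself. Its 4 windows summed to 23.47 and 19.76 normalised tags in NASH libraries 1 and 2, against 35.91 and 17.69 in control libraries 1 and 2. Control library 1, the shallowest, was high and control library 2 was below both NASH libraries, so the groups overlapped. The means were 21.6 ± 2.62 in NASH cells and 26.8 ± 12.9 in control cells (SD, n = 2 each), and the log2 change was 0.06 (SE 0.37, limma adjusted p = 0.730). Without control library 2 it was -0.32. The promoter window (chr15:82147027-82147254, centre at -129 bp) held 9.60 and 9.88 in NASH libraries against 8.45 and 6.19 in control libraries, with both NASH values above both control values (log2 change 0.64, SE 0.46, limma adjusted p = 0.658). The window in intron 1 at 468 bp (chr15:82147637-82147837) held 12.27 and 8.84 in NASH libraries against 24.29 and 9.73 in control libraries. That window carried the spread of the control sum, and it was on the control list of open regions only. The remaining windows were near the floor: at 4918 bp in intron 1, 1.60 and 0.52 in NASH libraries and 3.17 and 1.77 in control libraries, and at -8472 bp, within the neighbouring gene Ccdc134, 0 and 0.52 in NASH libraries and 0 in both control libraries. A value of 0 is compatible with at most 3 tags, equal to 1.60 and 1.56 normalised tags in the NASH libraries and 3.17 and 1.33 in the control libraries, for counting error only.

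Insig1 encodes the endoplasmic reticulum protein that retains SCAP and SREBP2 and is itself induced by SREBP2. Its 9 windows summed to 66.66 and 63.44 normalised tags in NASH libraries, against 109.84 and 117.6 in control libraries. Both NASH libraries lay well below both control libraries. The means were 65.05 ± 2.28 in NASH cells and 114 ± 5.49 in control cells (SD, n = 2 each). The log2 change of the sum was -0.80 (SE 0.21, limma adjusted p = 0.0136), and -0.51 after the median of all tested genes was subtracted. The call ended with TMM (limma adjusted p = 0.0780) and with edgeR (0.0513) or DESeq2 (0.285) on the recovered tags. With these the log2 change, after the median was subtracted, was -0.50, -0.53 and -0.52. It was -0.47 without NASH library 1, -0.56 without NASH library 2, -0.66 without control library 1 and -0.35 without control library 2. A fit without 1 library leaves 1 library in a diet and cannot measure its spread, so only the size of the change is given.

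No window covered the Insig1 start itself, so the part of the H3K27ac that lies there is not known. Most of the H3K27ac in windows lay in 3 neighbouring windows far upstream (chr5:28036851-28037948), which the authors' table annotates as intergenic. These windows lie within the span of the long noncoding RNA gene Gm35223 in RefSeq, which also contains Insig1 itself. Their assignment to Insig1 is by nearest start only. They held 75.2% and 73.8% of the gene's sum in NASH libraries and 71.2% and 90.6% in control libraries. Together they held 50.13 and 46.80 normalised tags in NASH libraries, against 78.16 and 106.56 in control libraries (48.5 ± 2.35 in NASH cells and 92.4 ± 20.1 in control cells, SD, n = 2 each). The window at -34450 bp held 20.27 and 18.72 in NASH libraries against 36.97 and 34.93 in control libraries (log2 change -0.59, SE 0.30, limma adjusted p = 0.0917). The window at -34006 bp held 11.73 and 13.00 in NASH libraries against 19.01 and 26.97 in control libraries (log2 change -0.57, SE 0.36, limma adjusted p = 0.173). The window at -33573 bp held 18.13 and 15.08 in NASH libraries against 22.18 and 44.66 in control libraries (log2 change -0.63, SE 0.35, limma adjusted p = 0.134). None of the 3 passed alone. Both NASH libraries were below both control libraries in each, as at 46.0% of all tested gene sums. The share over all windows was not computed, and neighbouring windows are not independent. The window at -33573 bp depended on the control libraries: its log2 change was -1.18 without control library 1 and -0.063 without control library 2. The change at -34006 bp was -0.24 without control library 2.

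In the windows near the Insig1 start the diets overlapped, and the difference from the upstream windows was not tested. These windows end at 28071283 and begin at 28071898, on either side of the RefSeq start at 28071412. H3K27ac at the start itself, and under the P300 site there, was thus not measured. The window at 588 bp in intron 1 (chr5:28071898-28072102) held 12.80 and 10.92 normalised tags in NASH libraries against 12.67 and 7.07 in control libraries, which overlapped (log2 change 0.55, SE 0.44, limma adjusted p = 0.736). The promoter window at -232 bp (chr5:28071077-28071283) held 0 and 3.64 in NASH libraries against 10.56 and 2.65 in control libraries and had too few tags for the test. A sum limited to windows within 1000 bp of a start gave Insig1 a log2 change of 0.15 after the median was subtracted (limma adjusted p = 0.881). Before that subtraction the mean of this sum was lower in NASH cells (13.7 ± 1.24 in NASH cells and 16.5 ± 9.55 in control cells, SD, n = 2 each), within the spread of the control libraries. The other 4 Insig1 windows held little or nothing: values at -67416, -66781 and -76058 bp ranged up to 2.13 in NASH libraries and 4.22 in control libraries, and the window at 22735 bp was at 0 in all 4 libraries.

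**Figure D3:**
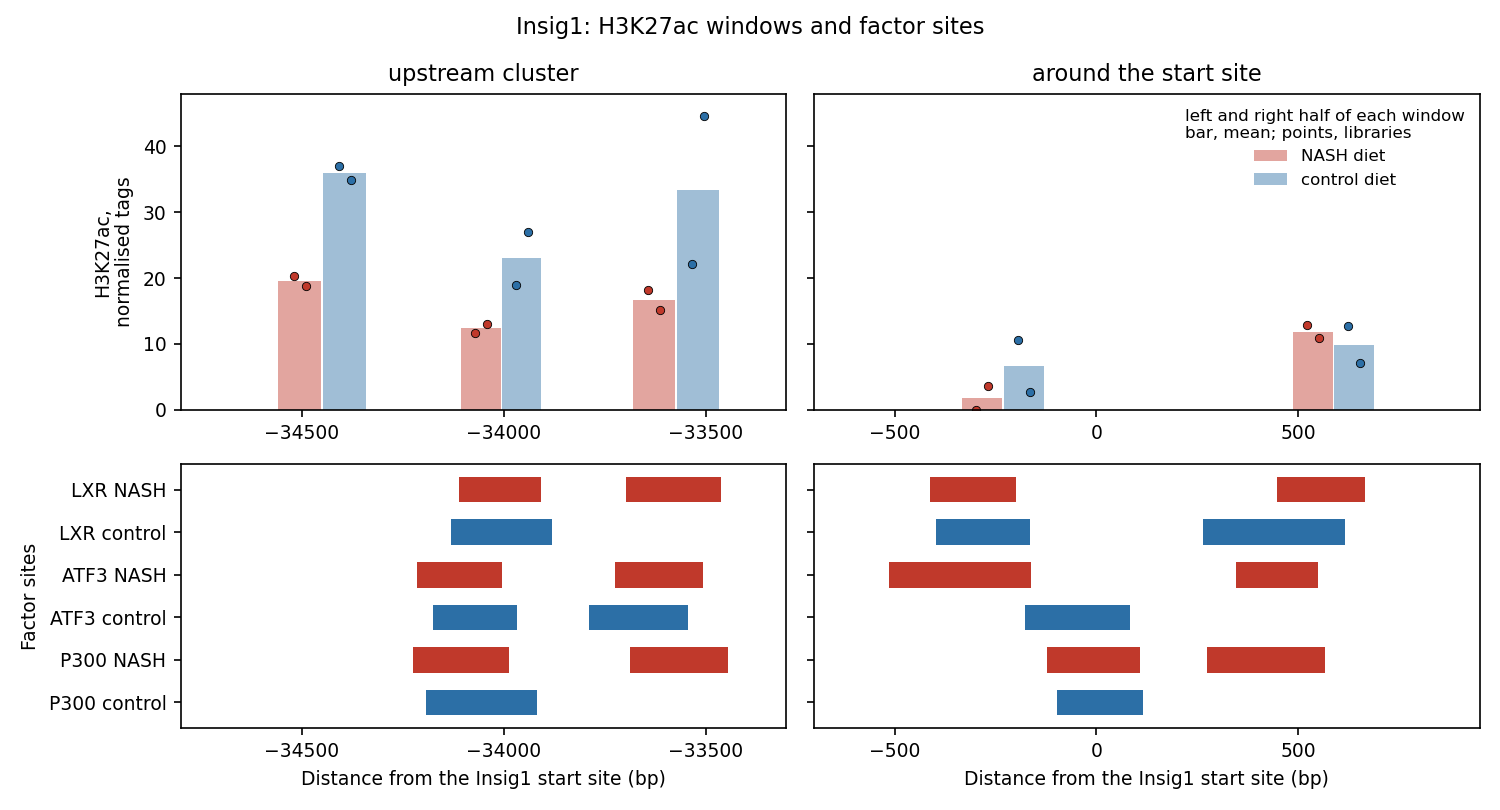
The upstream windows (left) and the windows around the start (right) of Insig1, with H3K27ac in normalised tags above (red bars and points in the left part of each window for NASH, blue in the right part for control; bars, mean of 2 libraries) and the listed LXR, ATF3 and P300 sites below; the horizontal axis is distance from the start in bp. The control bars are the taller ones in all 3 upstream windows, and P300 has 4 sites on the NASH list against 2 on the control list.

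Hmgcs1 encodes the HMG-CoA synthase of the cytosol, an early enzyme of the mevalonate pathway. Its 3 windows summed to 31.47 and 19.76 normalised tags in NASH libraries, against 7.40 and 14.15 in control libraries. Both NASH libraries were above both control libraries (25.6 ± 8.28 in NASH cells and 10.8 ± 4.77 in control cells, SD, n = 2 each). The log2 change of 1.49 (SE 0.42) missed the threshold with the authors' scaling (limma adjusted p = 0.0590). It passed with TMM (1.48, limma adjusted p = 0.00747) and with edgeR on the recovered tags (1.37, adjusted p = 0.00740), but not with DESeq2 (adjusted p = 0.114). The change was 2.02 without control library 2, 0.97 without control library 1, 1.24 without NASH library 1 and 1.72 without NASH library 2. The promoter window at -146 bp (chr13:119690105-119690305) held 9.60 and 4.68 in NASH libraries against 3.17 and 3.54 in control libraries, both NASH values being higher, and had too few tags for the test. It contains the SRE printed above. The other 2 windows lie downstream of the gene within the kinase gene Nim1k, in intron 3 as the table annotates them, so their assignment to Hmgcs1 is by nearest start only. The window at 22896 bp (chr13:119713146-119713348) held 3.20 and 5.72 in NASH libraries against 1.06 and 0.88 in control libraries. The window at 23206 bp (chr13:119713457-119713657), which was on the 20-week diet list of open regions only, held 18.67 and 9.36 in NASH libraries against 3.17 and 9.73 in control libraries, which overlapped (log2 change 1.35, SE 0.52, limma adjusted p = 0.215). These 2 windows made up 69.5% and 76.3% of the gene's sum in NASH libraries and 57.2% and 75.0% in control libraries. The change of the window at 23206 bp was 2.11 without control library 2, 0.61 without control library 1, 0.94 without NASH library 1 and 1.72 without NASH library 2.

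Idi1 encodes isopentenyl diphosphate isomerase, which balances the isoprenoid building blocks. Its 2 windows summed to 60.27 and 48.36 normalised tags in NASH libraries, against 64.43 and 69.42 in control libraries. Both NASH libraries were lower, by about the shift of all genes, and the relative log2 change was -0.02 (means 54.3 ± 8.42 in NASH cells and 66.9 ± 3.53 in control cells, SD, n = 2 each; SE 0.24, limma adjusted p = 0.420). It was 0.05 without NASH library 2 and 0.14 without control library 2. The promoter window at -53 bp (chr13:8885453-8885654) held 35.20 and 31.20 in NASH libraries against 33.80 and 39.35 in control libraries and overlapped (log2 change 0.12, SE 0.28, limma adjusted p = 0.814). The window in exon 1 at 261 bp (chr13:8885761-8885973) held 25.07 and 17.16 in NASH libraries against 30.63 and 30.07 in control libraries (log2 change -0.27, SE 0.32, limma adjusted p = 0.329).

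Cyp51 encodes the lanosterol demethylase, the P450 enzyme among these genes. Its 2 windows summed to 29.87 and 28.08 normalised tags in NASH libraries, against 24.29 and 15.48 in control libraries. Both NASH libraries were above both control libraries, and the NASH libraries were closer to each other (29.0 ± 1.27 in NASH cells and 19.9 ± 6.23 in control cells, SD, n = 2 each). The log2 change of 0.84 (SE 0.35) did not pass (limma adjusted p = 0.302; 0.0749 with TMM and 0.0573 with edgeR). The promoter window at -92 bp (chr5:4104683-4104896) held 17.60 and 13.52 in NASH libraries against 7.39 and 7.52 in control libraries, with no overlap (log2 change 1.22, SE 0.42, limma adjusted p = 0.174). The window in the 5′ UTR at 206 bp (chr5:4104390-4104593) held 12.27 and 14.56 in NASH libraries against 16.90 and 7.96 in control libraries, with both NASH values between the control values (log2 change 0.44, SE 0.43, limma adjusted p = 0.839). Its change was 0.88 without control library 1, 0.61 without NASH library 1, 0.23 without NASH library 2 and 0.023 without control library 2.

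Sqle encodes squalene epoxidase and Fdft1 squalene synthase, the enzymes that commit isoprenoids to sterols. Each had 1 window. That of Sqle (chr15:59314899-59315112, -87 bp) held 2.67 and 0 normalised tags in NASH libraries, or 5 and 0 tags, against 1.06 and 0.44 in control libraries, or 1 tag each. That of Fdft1 (chr14:63177877-63178081), placed at -92 bp from an alternative start inside the gene, held 0 in both NASH libraries, against 4.22 and 1.33 in control libraries, or 4 and 3 tags. A difference at either gene was not detectable at this depth, and no fold is given.

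**Figure D4:**
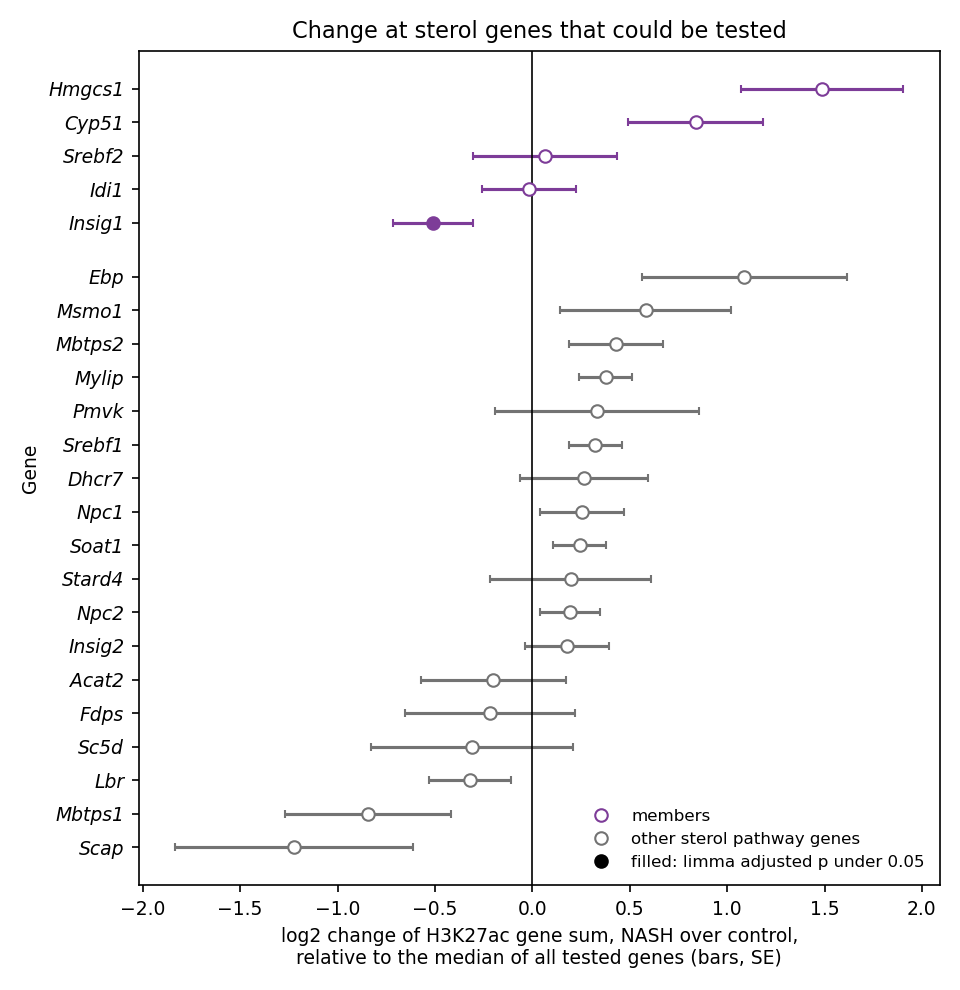
log2 change of the H3K27ac gene sum, NASH over control, relative to the median of all tested genes (horizontal axis; bars, SE), for the 5 tested members (purple, top) and the 18 tested of 27 other sterol pathway genes (grey). Insig1 alone is filled as called by limma with the authors' scaling, Hmgcs1 lies farthest to the right at 1.49, and 12 of the 18 other genes lie right of 0.

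The other genes of the pathway were read from a list of 27 genes, of which 26 are in the table (Idi2 was not analysed here) and 18 were tested. Of these 18, 0 were called higher and 0 lower by limma with the authors' scaling or with TMM, and 0 by edgeR or DESeq2. An unadjusted limma p under 0.05 occurred at 3, all lower in NASH cells, against 3346 of all 11593 tested genes. The log2 changes of the 18 ranged from -1.22 to 1.09 with a median of 0.22, and 12 of the 18 lay above the median of all tested genes. The median was 0.03 for the 8 tested of 16 synthesis enzymes, 0.18 for the 5 genes of sensing and processing and 0.24 for the 5 tested of 6 genes of uptake and transport. Insig2, the INSIG gene that SREBP2 does not induce, held 92.26 and 70.20 in NASH libraries against 89.77 and 84.02 in control libraries, which overlapped (log2 change 0.18, SE 0.22, limma adjusted p = 0.775). The difference between the changes of Insig1 and Insig2 was not tested.

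Factor sites were compared as lists, with 1 list per diet and no replicate, so they carry no test. The NASH lists were the longer ones for all 3 factors: LXR had 51709 sites on the NASH list and 44463 on the control list, ATF3 38828 and 16109, and P300 52628 and 25219. At the 7 loci LXR had 9 sites on the NASH list and 11 on the control list, ATF3 8 and 5, and P300 10 and 3. By overlap of at least 1 bp, 7 of the 9 LXR sites, 4 of the 8 ATF3 sites and 3 of the 10 P300 sites on the NASH lists were shared with the control list. Among the 7 genes, 0 had an LXR site on the NASH list only and 2 (Idi1 and Fdft1) on the control list only, against 5.33% and 4.57% of 16031 genes. For ATF3 2 genes (Hmgcs1 and Idi1) had a site on the NASH list only and 0 on the control list only, against 25.4% and 3.50% of genes. For P300 3 genes (Hmgcs1, Cyp51 and Fdft1) had a site on the NASH list only and 0 on the control list only, against 21.8% and 1.11% of genes. Sites were found at 4 of the 7 genes on the NASH list and 6 on the control list for LXR (83.0% and 82.3% of all genes), at 5 and 3 for ATF3 (69.5% and 47.6%) and at 5 and 2 for P300 (83.3% and 62.5%). Of the 22 windows, 8 held a P300 site on the NASH list and 2 on the control list (58.9% and 32.3% of all windows), 9 and 10 an LXR site (57.7% and 52.7%), and 7 and 5 an ATF3 site (42.0% and 21.4%).

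**Figure D5:**
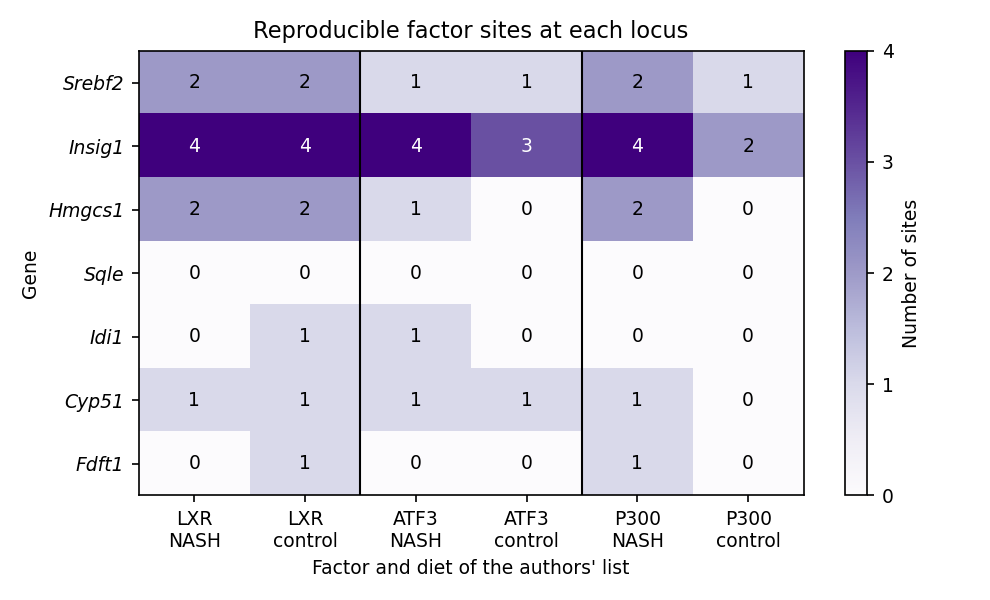
Number of listed sites (cell labels and shade) at each gene (rows) for each factor and diet (columns, NASH left of control). P300 columns show 10 sites in all on the NASH list and 3 on the control list. Insig1, the longest locus searched, holds the most sites, and Sqle holds 0.

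Insig1 held the most sites, but its locus was also the longest searched, at 108994 bp against 10205 to 33553 bp for the other genes. Sites lay in its upstream windows on both diets. LXR had a site in the window at -34006 bp on both lists, with an enrichment score from the authors of 103 on the NASH list (above 87.7% of that list) and 148 on the control list (above 90.4%). The lists differ in length, so these ranks show no change. In the window at -33573 bp LXR (score 50) and P300 (score 49) had sites on the NASH list and none on the control list, whereas ATF3 had sites there, and in the window at -34006 bp, on both. P300 also shared a site at -34006 bp. No factor had a site in the window at -34450 bp, which held the most acetylation of the 3 in both diets' means. At the start P300 had a shared site with a score of 120 on the NASH list (above 92.9%) and 90 on the control list (above 98.7%), and a site at 420 bp on the NASH list only. LXR sites at the promoter and in intron 1 were shared. The ATF3 sites at the promoter counted as shared but overlapped only at their ends. Their centres lay at -338 bp on the NASH list and -47 bp on the control list, with reproducibility scores of 550 and 563. An ATF3 site at 448 bp was on the NASH list only, and an LXR site at -66882 bp on the control list only. At Srebf2 the LXR site at -256 bp on the NASH list overlapped 2 sites on the control list, at -398 and -56 bp. P300 shared a site at the start. An LXR site at 4918 bp and a P300 site at -342 bp were on the NASH list only. The ATF3 sites of the lists (-411 bp on NASH, -165 bp on control) lay side by side without overlap.

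At Hmgcs1 LXR had shared sites both at the promoter and downstream. The promoter site had a score of 49 on the NASH list (above 57.2%) and 111 on the control list (above 82.3%), and the downstream site had 91 on the NASH list (above 84.4%) and 54 on the control list (above 45.1%). P300 had sites at both places on the NASH list only, with a score of 102 downstream (above 88.7%) and 35 at the promoter (above 30.6%), and ATF3 had a downstream site on the NASH list only. The SRE lay inside the LXR site of both diets and inside the P300 site of the NASH list. At Idi1 an LXR site at the start (-28 bp) was on the control list only and an ATF3 site (-122 bp) on the NASH list only. The NF-Y boxes at -45 to -41 and at -14 to -10 lay inside both of these sites, and P300 had 0 sites at Idi1 on either list. At Cyp51 LXR and ATF3 shared a promoter site and P300 had a site at 254 bp on the NASH list only. At Fdft1 an LXR site (-12 bp) was on the control list and a P300 site (-248 bp) on the NASH list, and Sqle had 0 sites of any factor.

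By likeness over the 4 libraries (distance between mean-centred log2 gene sums, 11593 genes), the nearest genes were Ywhaq, Camsap2 and Dnajc24 to Srebf2, Ctnnd1, Pde4a and Polr3gl to Insig1, Cnn3, Ifi211 and Ncald to Hmgcs1, Ppig, Cat and 1700029N11Rik to Idi1, and Ankrd33b, 6030468B19Rik and Specc1 to Cyp51. With 4 libraries many genes share a profile: 658 genes lay within a distance of 0.2 of Idi1 and 215 of Insig1, but 2 of Hmgcs1.

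Libraries held 18749728 and 19231109 tags (NASH) and 9468035 and 22615879 tags (control), of which 7.91% to 8.61% and 8.86% to 9.60% lay in windows. The Kupffer cell label was checked against its markers, of which 8 of 8 were in the table with sums of 1082 and 995 normalised tags in NASH libraries and 1715 and 1627 in control libraries, and 4 of the 8 were called lower. Timd4, the sorting marker, held 21.3 and 26.0 in NASH libraries against 257 and 256 in control libraries. Summed markers of hepatocytes (4 of 6 in the table) held 43.2 and 39.0 in NASH libraries and 28.5 and 29.2 in control libraries, with the defining gene Alb at 3.20 and 0 against 4.22 and 2.65. Those of monocytes (3 of 4) held 340 and 361 against 305 and 306, those of liver endothelium (5 of 5, of which 2 were called lower) 73.6 and 65.5 against 137 and 93.7, and those of T cells (1 of 3, Cd3d, called higher) 12.3 and 21.8 against 3.17 and 3.54. Markers of stellate cells, B cells and cholangiocytes were in the table for 1 gene each, with sums of at most 16.0 in NASH libraries and 16.9 in control libraries. The part of these markers in the values of the sterol genes was not tested.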

How the data were processed

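H3K27ac, LXR, ATF3 and P300 ChIP-seq of sorted mouse Kupffer cells was used, with groups from the sample labels; the 10 inputs and 1 peritoneal library are not analysed here. Bowtie2, HOMER and DESeq2 on mm10 or GRCm38 are named in the submitters' processing notes, without versions or roles. The H3K27ac table was deposited as a signal, tags per open chromatin window scaled to 10000000 per library and assigned to genes by HOMER, per the file headers. The authors gave each factor site a reproducibility (IDR) score, kept at a threshold of 0.05 for LXR and P300 per the file headers, and added an enrichment score to the LXR and P300 lists. No source used here gives the ATF3 threshold, the unnamed score column of ATF3 was read by its place, and the header of its control list names pooled data.

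Values times the library total gave whole tags, within 0.02, for 100% of values. Tests used limma 3.58.1 (pseudocount 1) on windows and gene sums kept by filterByExpr of edgeR 4.0.16 (minimum count 10), with R 4.3.3. TMM, edgeR and DESeq2 1.42.0 on the recovered tags, pseudocounts of 0.5 and 4, no filter, a replicate block and leaving out each library were alternatives, as were other flanks, overlaps and IDR limits for sites. Over all gene sums, edgeR called 857 higher and 764 lower in NASH cells, and limma 335 and 1278. The method was tested on simulated data. The 12 windows without a gene name held 0.0580% to 0.132% of tags in windows and stayed out of gene sums. Distances run from the start site to the centre of a window or site. The genes, the lists and the tests were chosen with earlier results of these data known, and some genes planned for the pathway list are not reported here. Named were all 7 genes with every window and site, pathway genes called with either scaling, Insig2, and the 3 nearest genes by likeness.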

Additional observations from a re-analysis of the deposited data

How the results depend on the processing

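Deviations of libraries with the same replicate number had a correlation of 0.03 over gene sums and 0.04 over windows. No deviation shared by number was thus seen over the whole table, but this cannot tell whether libraries were prepared in pairs. With the replicate block 1 of the 5 genes (Hmgcs1) was called higher, Insig1 was still called lower, and 3 pathway genes were called lower (Lbr, Mbtps1 and Scap, named after their values were seen). The count of genes called higher was 0 as reported and 1 with TMM or edgeR, and that of genes called lower was 1 as reported and 0 with TMM, edgeR, DESeq2 or windows within 1000 bp of a start only. Leaving out 1 library leaves a diet with 1 library, whose spread is then not measured, so only sizes of change are given for these fits. Of the pathway genes named above, Scap was at -2.26 without NASH library 1, and Lbr at -0.30 and Mbtps1 at -1.48 without control library 2. Leaving out 1 library also turned the sign of small changes: Srebf2 ranged from -0.32 to 0.46, its window at 468 bp from -0.81 to 0.29, Idi1 from -0.17 to 0.14, and its window at -53 bp from -0.044 to 0.31. Windows near a start alone gave 0.15 for Insig1, relative to the median of all genes. The cause was not tested. With flanks of 20000 bp LXR had 15 sites on the NASH list and 18 on the control list (12 shared), P300 16 and 7 (6 shared), and ATF3 12 and 8 (6 shared). At an IDR score of at least 830, ATF3 had 1 site on the control list, 1 shared site and 1 window with a control site. With an overlap of at least 0.5 of a window, 1 window held a P300 site on the control list. Of all counts compared, 86 moved by at most 1.5 times and 26 by more. Depth limits Sqle and Fdft1 most, with at most 5 tags per library.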
